A study of Homo sapiens with 4 samples.

Results

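The genes examined here encode Polycomb repressive complex 1 (PRC1) and the enzymes that write and remove ubiquitin at H2AK119, a lysine near the tail end of histone H2A. They were taken by symbol from a list of 35 names, and all 35 were found among the 35606 genes of the count table. Of these, 33 had enough counts to be tested and 2, SCML1 and ASXL3, did not.

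PRC1 is built on a heterodimer of a RING ligase, RING1 or RNF2, and 1 of the PCGF proteins, and it attaches a single ubiquitin to H2AK119. Canonical PRC1 adds a CBX protein, which reads the H3K27 methylation made by Polycomb repressive complex 2 (PRC2), and a PHC protein, whereas variant PRC1 holds RYBP or YAF2 and is brought to DNA by other partners. BAP1, with an ASXL cofactor, removes the ubiquitin, so the mark reflects a balance of both activities. In blood cells PRC1, and BMI1 above all, is known for its part in stem cell self-renewal and in keeping developmental genes silent.

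K562 is an established human line, grown from a chronic myelogenous leukaemia, that keeps erythroid traits. The series holds 2 groups, each of 2 libraries with replicate numbers 1 and 2: K562 cells expressing JAZF1-SUZ12, the fusion protein of low-grade endometrial stromal sarcoma, made from JAZF1 and the PRC2 subunit SUZ12, and mock K562 cells. How the fusion was delivered, what the mock cells received, which promoter was used and whether a clone was grown are not given in the sources used here. No label says that the 2 libraries of a group came from separate cultures, so p-values measure the spread between these libraries, which may be technical. The comparison asks whether transcripts of the PRC1 machinery differ when a fusion of a PRC2 subunit is expressed.

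The libraries held between 17260936 and 24423028 estimated counts. The source label names the uterus, but the 10 erythroid markers, all with more than 3 counts in every library, summed to 11619 and 11292 CPM (counts scaled to a library of 1000000) in mock and to 13349 and 12981 CPM in JAZF1-SUZ12 libraries. Of these markers 5 were called higher (HBZ, ALAS2, HBE1, HBG1 and TFRC; log2 fold change of HBZ 0.86) and none lower. Of 9 markers of endometrial stroma, LUM had 0 counts and COL3A1 at most 3 in every library, and the 9 together reached 14.6 and 15.1 CPM in mock libraries and 32.3 and 32.8 CPM in JAZF1-SUZ12 libraries, the rise coming mostly from COL1A1 (106 and 136 against 370 and 521 counts). The 6 epithelial markers, led by KRT8 and KRT18 and with KRT7 at 0 counts, summed to between 1377 and 1443 CPM, and the 5 lymphocyte markers, with MS4A1 at 0, to between 18.3 and 22.0 CPM. The part of these markers in the results below was not tested. The partner genes matched the labels: JAZF1 had 12 and 27 counts in mock and 574 and 731 in JAZF1-SUZ12 libraries, and SUZ12 had 2781 and 2798 against 4754 and 6582.

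Most genes of the PRC1 machinery were not called as different between the groups, and their fold changes were mostly small. Of the 33 genes tested, 6 passed an adjusted p of 0.05 (edgeR quasi-likelihood test, Benjamini-Hochberg adjustment over all 14750 genes tested), which is 18.2%, whereas 24.7% of all genes tested passed. BMI1 and PHC3 rose, which is 6.06% of the genes tested against 13.3% of all genes called higher. CBX2, CBX6, SCML2 and L3MBTL2 fell, which is 12.1% against 11.4% of all genes called lower. No tested gene of the machinery changed by 2-fold, and apart from AUTS2, which had at most 31 counts in a library, every log2 fold change lay between -0.30 and 0.31. The median log2 fold change was -0.064 over the 33 genes and 0.0032 over all genes tested. The median size of the log2 fold change was 0.13 over the 33 genes and 0.17 over all genes tested, but 0.12 over genes with 200 or more counts on average, so at that level the members' changes were no smaller. In the 32 genes whose mean reached 200 counts, 18.8% passed, against 27.8% of the 9663 genes at that level, whose median log2 fold change was -0.047. In 27 of the 33 genes, or 81.8%, the libraries of the groups did not overlap in CPM, against 61.3% of all genes tested, with 11 of the 27 higher and 16 lower in JAZF1-SUZ12 cells. In genes whose mean reached 200 counts these shares were 81.3% and 64.6%. The number of members called depended on single libraries, and so did the number of all genes called. Both were lowest without JAZF1-SUZ12 replicate 2 or mock replicate 1. DESeq2 called 2 of the 33 genes, BMI1 and CBX2, against 16.3% of all genes. Before adjustment, 13 of the 33 genes had an edgeR p under 0.05, against 36.0% of all genes tested. The members thus did not pass less often at that cutoff.

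**Figure D1:**
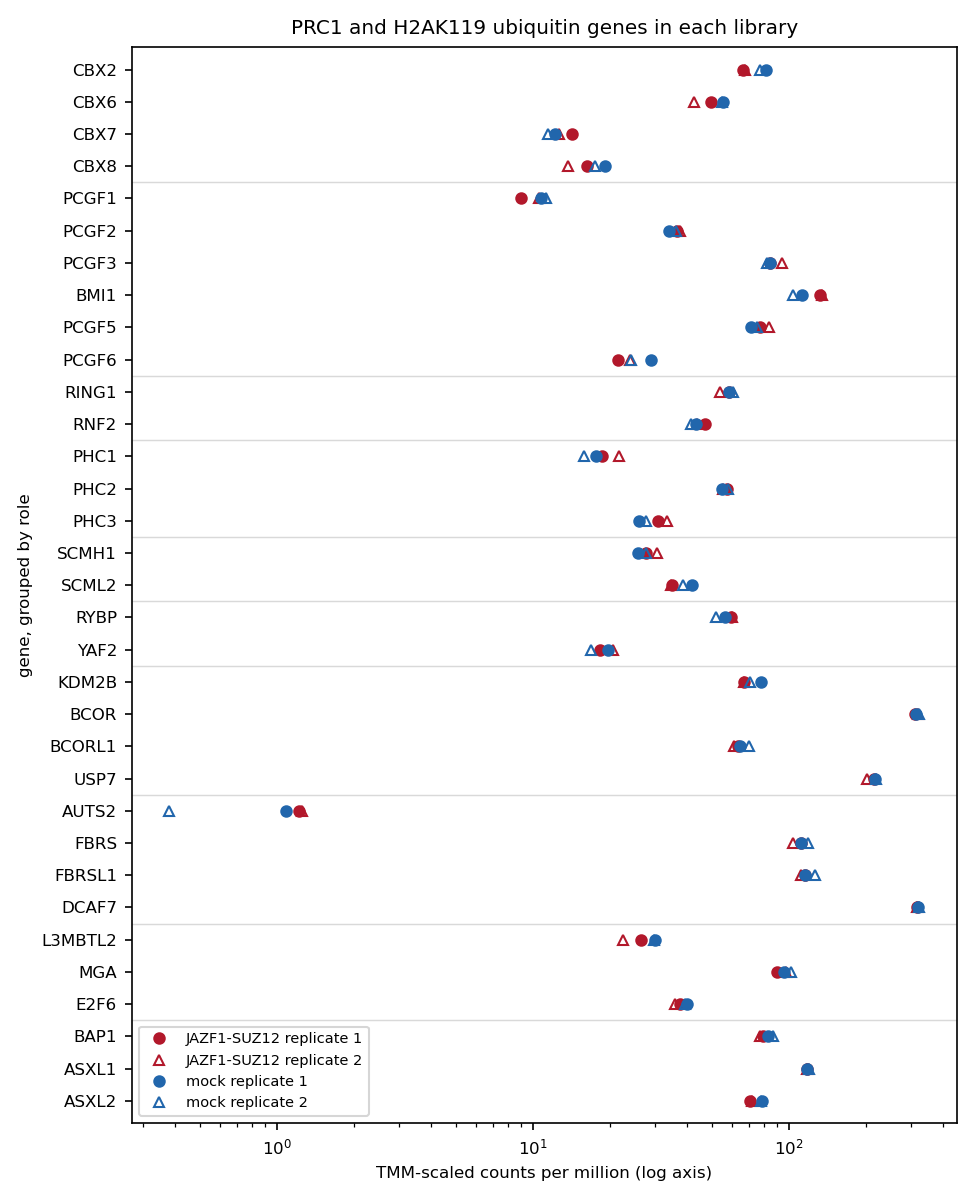
Level of each of the 33 tested genes in each library, as CPM scaled by the trimmed mean of M-values (TMM), on a log axis; red marks JAZF1-SUZ12 and blue marks mock libraries, with circles for replicate 1 and triangles for replicate 2, and lines separate the roles. Apart from AUTS2, whose mock replicate 2 lies lower, the libraries of a gene lie close together, over a range from AUTS2, near 1 CPM, to DCAF7 and BCOR, above 300 CPM.

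**Figure D2:**
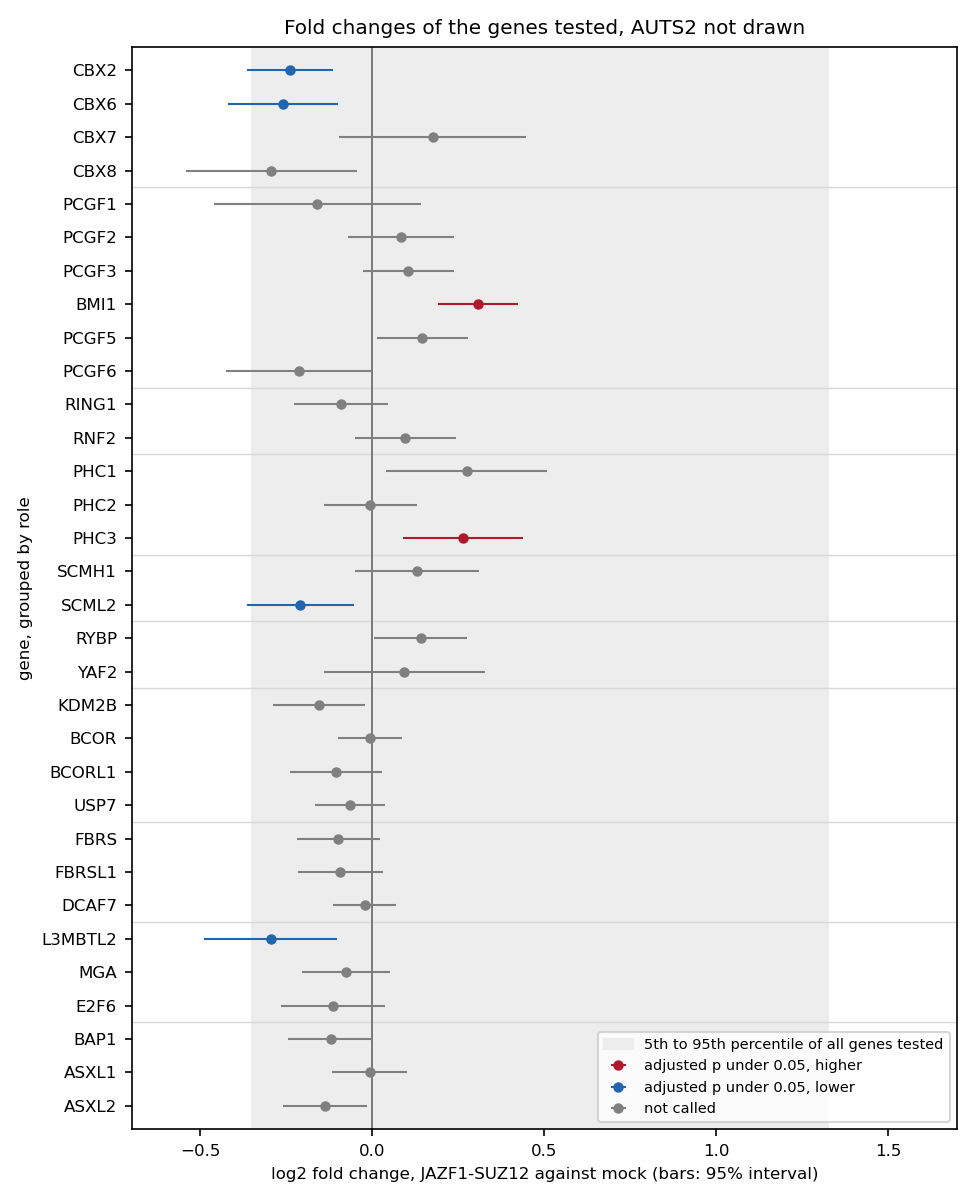
Difference on the log2 scale, JAZF1-SUZ12 minus mock, for 32 of the tested genes (AUTS2 is not drawn), with its 95% interval; red and blue mark the genes called higher and lower, and the grey band runs from the 5th to the 95th percentile of all genes tested, -0.35 to 1.32. The 6 called genes lie on both sides of 0 and within that band.

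The ligase subunits were not called. RING1 (chromosome 6, 33208495 to 33212722, plus strand; GRCh38, GENCODE 29, as for every gene position here) was at 58.4 and 60.4 CPM in mock libraries and 58.2 and 53.6 CPM in JAZF1-SUZ12 libraries. RNF2, its paralog, was at 43.3 and 41.4 CPM in mock libraries and 46.9 and 43.8 CPM in JAZF1-SUZ12 libraries. Neither pair of groups overlapped, but the differences were small: the log2 fold change was -0.09 for RING1 (95% interval -0.23 to 0.046; edgeR, adjusted p = 0.340) and 0.10 for RNF2 (-0.051 to 0.24; edgeR, adjusted p = 0.349).

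Among the 6 PCGF proteins, which decide the subtype of a PRC1 complex, 1 rose and 5 were not called. BMI1 (PCGF4; ENSG00000168283; chromosome 10, 22321211 to 22331484, plus strand), of canonical PRC1, was at 112.1 and 103.4 CPM in mock libraries and at 132.6 and 133.9 CPM in JAZF1-SUZ12 libraries. Both JAZF1-SUZ12 libraries were above both mock libraries, and they lay closer together than the mock pair. The mean was 108 ± 6.15 CPM in mock libraries and 133 ± 0.921 CPM in JAZF1-SUZ12 cells (SD, n = 2 each), which is 0.31 on the log2 scale (SE 0.06; edgeR, adjusted p = 0.00073). It was called with each library left out, with a log2 fold change between 0.24 and 0.36 (edgeR, adjusted p between 3.34e-05 and 0.0133).

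BMI1 shares exon sequence with the read-through gene COMMD3-BMI1, so reads can be divided between them. COMMD3-BMI1 had 4 and 10 counts in mock and 106 and 48 counts in JAZF1-SUZ12 libraries, so that both JAZF1-SUZ12 libraries were higher, replicate 1 most of all. Its log2 fold change was 3.53 (SE 0.57; edgeR, adjusted p = 0.000339), and it was between 2.50 and 4.27 when 1 library was left out. The read-through gene took 4.42% and 1.43% of the summed counts of both genes in JAZF1-SUZ12 libraries and 0.162% and 0.447% in mock libraries. With both genes summed, a choice made after seeing the data, the log2 fold change was 0.35 (edgeR, adjusted p = 0.000277). COMMD3 itself, which lies upstream, had a difference of -0.04 on the log2 scale (edgeR, adjusted p = 0.789).

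The other PCGF genes had log2 fold changes between -0.21, in PCGF6, and 0.15, in PCGF5. PCGF5, of the variant complexes PRC1.3 and PRC1.5, was at 71.0 and 74.9 CPM in mock libraries and 77.2 and 83.7 CPM in JAZF1-SUZ12 libraries (edgeR, adjusted p = 0.0998). PCGF6, of PRC1.6, was at 28.8 and 24.03 CPM in mock libraries and 21.5 and 23.9 CPM in JAZF1-SUZ12 libraries (edgeR, adjusted p = 0.138). PCGF1, PCGF2 and PCGF3 had adjusted p-values of 0.46, 0.448 and 0.242 (edgeR). PCGF2, the closest paralog of BMI1, was at 33.9 and 36.0 CPM in mock libraries and 36.6 and 37.5 CPM in JAZF1-SUZ12 libraries. Exons of PCGF2 overlap CISD3 on the opposite strand, and whether counting used strand is not given in the sources used here.

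Of the 4 CBX genes, 2 fell, with a median log2 fold change of -0.25. CBX2 (ENSG00000173894; chromosome 17, 79778132 to 79787983, plus strand), a chromodomain subunit that also compacts chromatin, was at 81.3 and 76.8 CPM in mock libraries and at 66.3 and 67.5 CPM in JAZF1-SUZ12 libraries. The groups did not overlap, and the log2 fold change was -0.24 (SE 0.06; edgeR, adjusted p = 0.00758). Without mock replicate 1, CBX2 was not called (log2 fold change -0.21; edgeR, adjusted p = 0.0611, the highest of the 4 fits without a library, the lowest being 0.00588). CBX6 (ENSG00000183741; chromosome 22, 38861450 to 38872314, minus strand) was at 55.01 and 54.6 CPM in mock libraries and at 49.7 and 42.3 CPM in JAZF1-SUZ12 libraries. The mock libraries agreed closely and JAZF1-SUZ12 replicate 2 was the lowest. The log2 fold change was -0.26 (SE 0.08; edgeR, adjusted p = 0.0186), and it was -0.14 without that library (edgeR, adjusted p = 0.301, the highest of the 4 such fits, the lowest being 0.000173). DESeq2 did not call CBX6 (adjusted p = 0.0750, the top of a range from 0.00191 over 7 alternatives).

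CBX8, which lies beside CBX2 on chromosome 17, was at 19.1 and 17.4 CPM in mock libraries and 16.2 and 13.7 CPM in JAZF1-SUZ12 libraries. Its log2 fold change of -0.29 (95% interval -0.54 to -0.046) was larger in size than that of CBX2. With 279 to 387 counts per library its standard error was 0.12, and it was not called (edgeR, adjusted p = 0.0791). CBX7 was at 12.2 and 11.5 CPM in mock libraries and 14.2 and 12.6 CPM in JAZF1-SUZ12 libraries, a log2 fold change of 0.18 with a 95% interval of -0.096 to 0.45 (edgeR, adjusted p = 0.354). CBX7 thus had the opposite sign to the other listed CBX genes, and this difference was not tested.

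Of the 3 PHC genes, whose SAM domains polymerise and link PRC1 complexes, 1 rose. PHC3 (ENSG00000173889; chromosome 3, 170086732 to 170181749, minus strand) was at 25.9 and 27.7 CPM in mock libraries and at 30.9 and 33.3 CPM in JAZF1-SUZ12 libraries. The groups did not overlap, and the log2 fold change was 0.26 (SE 0.08; edgeR, adjusted p = 0.0277). PHC3 was not called without JAZF1-SUZ12 replicate 2 (edgeR, adjusted p = 0.215) or without mock replicate 1 (edgeR, adjusted p = 0.170), and with the other libraries left out its adjusted p was 0.0168 and 0.0342; nor was it called by DESeq2 (adjusted p = 0.159, the top of a range from 0.0162 over 7 alternatives). PHC1 had a log2 fold change of similar size, 0.27 (95% interval 0.041 to 0.51), and was not called (edgeR, adjusted p = 0.0818). It was at 17.6 and 15.9 CPM in mock and 18.6 and 21.7 CPM in JAZF1-SUZ12 libraries. Counts of PHC1 are less certain, since its exons overlap M6PR on the other strand and the pseudogene PHC1P1 had between 50 and 83 counts. PHC2, the most abundant PHC gene per kilobase of its longest transcript, was at 54.7 and 58.0 CPM in mock libraries and 57.1 and 55.2 CPM in JAZF1-SUZ12 libraries, and the groups overlapped (edgeR, adjusted p = 0.961).

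The SCM-type proteins join PRC1 through a SAM domain, and SCMH1 and SCML2 carry MBT domains. SCML2 (ENSG00000102098; chromosome X, 18239314 to 18354727, minus strand) was at 41.8 and 38.5 CPM in mock libraries and at 34.9 and 34.5 CPM in JAZF1-SUZ12 libraries. The groups did not overlap, and the log2 fold change was -0.21 (SE 0.07; edgeR, adjusted p = 0.0463). The pseudogenes SCML2P1 and SCML2P2 were counted separately and had between 3 and 35 counts. Of the called members SCML2 was nearest to the threshold, and it was called in 3 of 7 alternatives with all libraries, in which the adjusted p ranged from 0.0297 to 0.209. It was not called without JAZF1-SUZ12 replicate 1, JAZF1-SUZ12 replicate 2 or mock replicate 1 (edgeR, adjusted p = 0.0699, 0.160 and 0.259), and was called without mock replicate 2 (adjusted p = 0.0252). SCMH1 was at 25.8 and 27.5 CPM in mock libraries and 27.7 and 30.5 CPM in JAZF1-SUZ12 libraries (edgeR, adjusted p = 0.292). SCML1 had 0 counts in every library, which allows up to 3 counts, or between 0.121 and 0.174 CPM; this limit covers counting error only.

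The subunits of variant PRC1 that replace CBX proteins were not called. RYBP, which stimulates the ligase and binds H2AK119 ubiquitin, was at 56.2 and 52.05 CPM in mock libraries and 59.4 and 59.9 CPM in JAZF1-SUZ12 libraries (log2 fold change 0.14; edgeR, adjusted p = 0.128). Its paralog YAF2 was at 19.7 and 16.8 CPM in mock libraries and 18.2 and 20.5 CPM in JAZF1-SUZ12 libraries, with overlapping groups (edgeR, adjusted p = 0.595).

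In PRC1.1, which KDM2B brings to unmethylated CpG islands through its CXXC domain, none of 4 genes was called, and their log2 fold changes lay between -0.16 and -0.0071. KDM2B was at 77.7 and 70.5 CPM in mock libraries and 66.6 and 66.4 CPM in JAZF1-SUZ12 libraries. Its log2 fold change was -0.16 (95% interval -0.29 to -0.022), and it was not called (edgeR, adjusted p = 0.0848). Its exons overlap RNF34 on the other strand, which fell by 0.34 on the log2 scale (edgeR, adjusted p = 0.00229), so counts of KDM2B are less certain. The scaffold BCOR was among the most abundant and the least changed members, at 312 and 321 CPM in mock libraries and 312 and 318 CPM in JAZF1-SUZ12 libraries (edgeR, adjusted p = 0.929). Its log2 fold change had a 95% interval of -0.10 to 0.086. The paralog BCORL1 and the deubiquitinase USP7, a stabilising partner of PRC1.1, had adjusted p-values of 0.248 and 0.367 (edgeR).

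The partners of PRC1.3 and PRC1.5 were not called either. DCAF7, a WD-repeat adaptor, stood with BCOR at the top of the range, at 318 and 323 CPM in mock libraries and 317 and 315 CPM in JAZF1-SUZ12 libraries (edgeR, adjusted p = 0.753). FBRS and FBRSL1, paralogs of AUTS2, had log2 fold changes of -0.10 and -0.09 (edgeR, adjusted p = 0.226 and 0.269). AUTS2, which turns PRC1 towards activation in neural cells, had 22 and 8 counts in mock and 21 and 31 in JAZF1-SUZ12 libraries, and mock replicate 2 stood apart from the other 3. Its log2 fold change of 0.76 had a 95% interval of -0.35 to 1.87 (edgeR, adjusted p = 0.324), and without mock replicate 2 it was 0.18, so a change in AUTS2 was not detectable at this depth.

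Among the partners of PRC1.6, which silences germline genes, 1 of 3 fell. L3MBTL2 (ENSG00000100395; chromosome 22, 41205205 to 41231271, plus strand), an MBT-domain protein, was at 29.8 and 29.8 CPM in mock libraries and at 26.4 and 22.5 CPM in JAZF1-SUZ12 libraries. The mock libraries were nearly equal and JAZF1-SUZ12 replicate 2 was the lowest. The log2 fold change was -0.30 (SE 0.09; edgeR, adjusted p = 0.026). It was -0.17 without JAZF1-SUZ12 replicate 2 (edgeR, adjusted p = 0.319) and -0.30 without mock replicate 1 (edgeR, adjusted p = 0.0563), and with either of the other libraries left out it was called (adjusted p = 0.00165 and 0.0405). DESeq2 did not call it (adjusted p = 0.131, the top of a range from 0.00894 over 7 alternatives). The DNA-binding partners were not called: MGA, which binds E-boxes with MAX, was at 95.6 and 101.7 CPM in mock libraries and 89.4 and 97.3 CPM in JAZF1-SUZ12 libraries (edgeR, adjusted p = 0.391), and E2F6 differed by -0.11 on the log2 scale (edgeR, adjusted p = 0.264).

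In the BAP1 complex, 3 of 4 genes were tested and none was called. BAP1, the deubiquitinase, was at 82.4 and 86.5 CPM in mock libraries and 78.7 and 76.6 CPM in JAZF1-SUZ12 libraries, a log2 fold change of -0.12 (95% interval -0.24 to 0.0009; edgeR, adjusted p = 0.142). Its cofactor ASXL1 was at 117.2 and 119.7 CPM in mock libraries and 117.7 and 117.9 CPM in JAZF1-SUZ12 libraries (edgeR, adjusted p = 0.933). ASXL2 was at 78.4 and 77.6 CPM in mock libraries and 70.2 and 71.5 CPM in JAZF1-SUZ12 libraries. The groups of ASXL2 were each tight and did not overlap, yet its log2 fold change of -0.14 was not called (edgeR, adjusted p = 0.0937). ASXL3 had at most 2 counts in a library, so no fold is given.

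**Figure D3:**
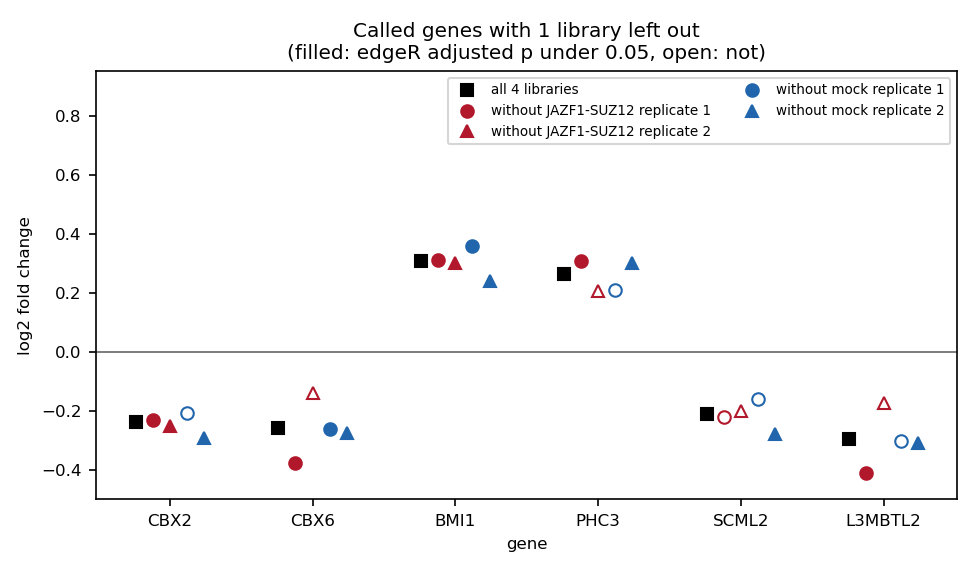
Log2 fold change of the 6 called genes with all 4 libraries (black squares) and with 1 library left out (red: a JAZF1-SUZ12 library, blue: a mock library; circles: replicate 1, triangles: replicate 2); filled symbols have an edgeR adjusted p under 0.05. Every value keeps its sign, and only BMI1 is filled in all 5 fits.

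Levels per length show which paralog led each family. They are CPM per kilobase of the longest GENCODE 29 transcript, and their order depends on the length used. By this scale the most abundant members in mock were DCAF7, BCOR and USP7, at 50.6, 49.6 and 40.2 CPM per kilobase. The mock values of DCAF7 overlapped those of BCOR. RING1 followed at 33.9 and BMI1 at 31.4. RING1 made up 73.5% and 75.04% of the ligase pair in mock and 71.9% and 71.6% in JAZF1-SUZ12 libraries. BMI1 made up 37.4% and 35.9% of the PCGF sum in mock and 42.5% and 40.6% in JAZF1-SUZ12 libraries. PCGF6 made up 14.8% and 12.8% against 10.6% and 11.1%. PHC2 made up 71.8% and 73.7% of the PHC sum in mock and 70.6% and 67.3% in JAZF1-SUZ12 libraries. CBX2 held 50.7% and 50.3% of the sum of the 4 listed CBX genes in mock and 47.3% and 51.6% in JAZF1-SUZ12 libraries, with overlap. CBX7 held 8.67% and 8.56% of that sum in mock and 11.6% and 11.0% in JAZF1-SUZ12 libraries. ASXL1 held 70.5% and 71.2% of the ASXL sum in mock and 72.8% and 72.5% in JAZF1-SUZ12 libraries. By this length the shares of CBX7, PCGF1, BMI1, PCGF6, RING1, RNF2, PHC2, PHC3, ASXL1 and ASXL2 did not overlap between the groups. Those of the other paralogs did. With the median length of the coding transcripts, the shares of CBX6, CBX8, PCGF2 and PCGF3 did not overlap either. Shares within a family are tied to each other, as a rise in any paralog lowers the others. How often such shares fail to overlap over all genes was not tested. These shares are descriptions, since 2 libraries against 2 give an exact permutation test no chance to pass the threshold. With the median length of the coding transcripts, BMI1 and RING1 still led with 61.7% and 57.3% in mock, but PHC3 led the PHC genes on average with 38.4%, close to PHC1, and YAF2 led RYBP with 53.9%.

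**Figure D4:**
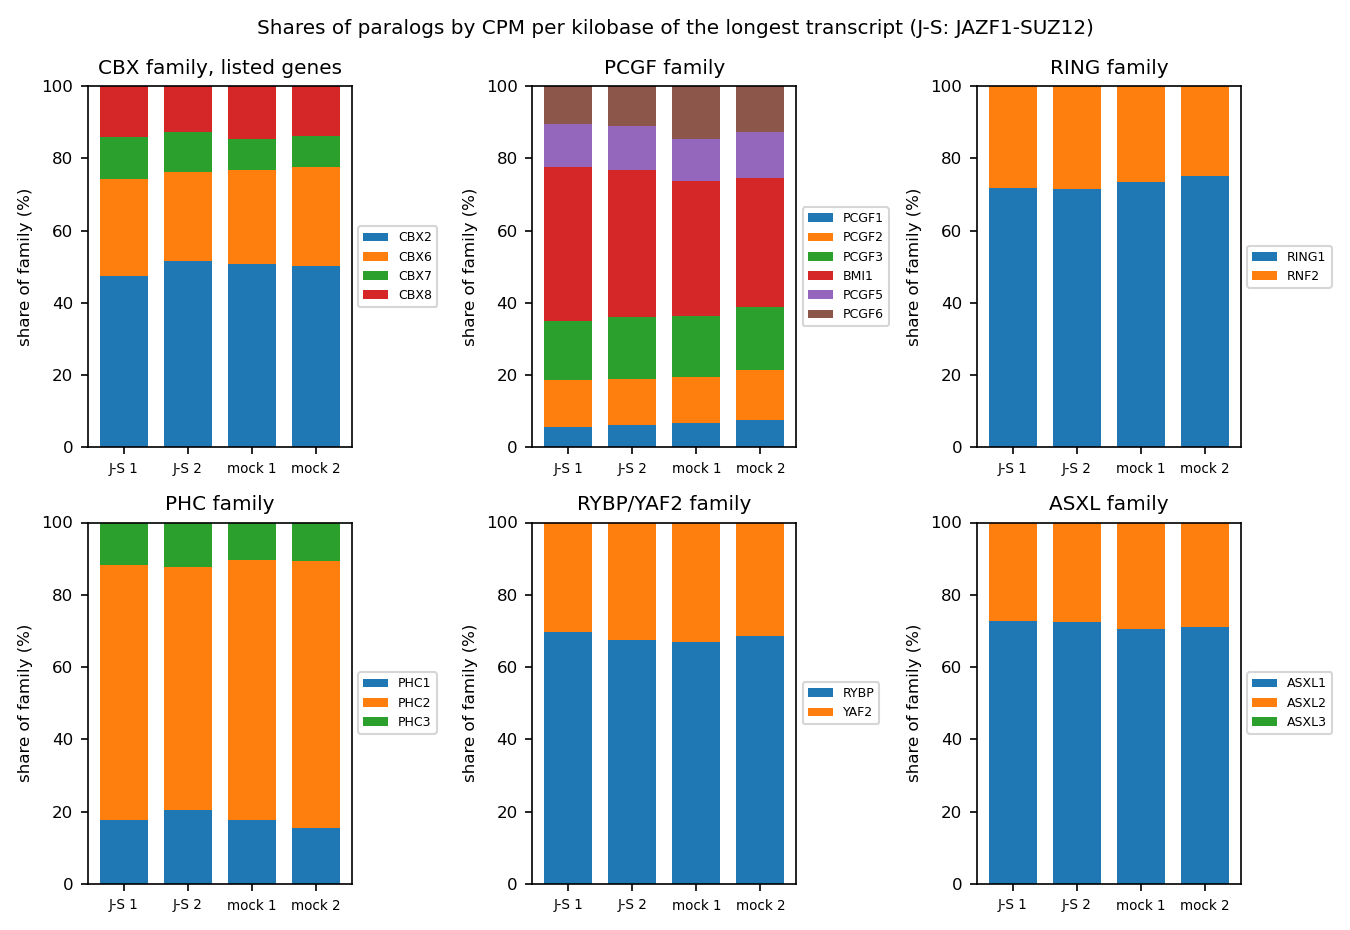
Share of each paralog in its family in each library, from CPM per kilobase of the longest transcript; each bar is 1 library and adds up to 100%. The make-up of each family is similar in the 4 libraries, and ASXL3 is too low to be seen. BMI1 takes a larger share of the PCGF sum, and CBX7 of the sum of listed CBX genes, in both JAZF1-SUZ12 libraries. CBX7 itself was not called, and the other listed CBX genes had negative log2 fold changes.

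The promoters of the called members are shown because these are the members that differed between the groups. RefSeq (GRCh38.p14) gave windows for 31 of the 35 genes, and for genes with several the window nearest the GENCODE start was taken. Its start site lay up to 3189 bases from the GENCODE start, in PCGF2. CBX2, CBX8, BAP1 and FBRS have no entry. Each sequence below is the 250 bases before the start site, 5′ to 3′ on the strand of the gene, with matches to 6 motifs on either strand in capitals: the GC box GGGCGG, the E-box CACGTG, the E2F-type TCCCGCC, the ETS-type CCGGAAG, the NRF1 palindrome and the GATA-type AGATAA. The GC box and E2F-type motifs can overlap. BMI1 (chr10:22320849-22321098, plus strand) and PHC3 (chr3:170181734-170181983, minus strand) rose, and CBX6 (chr22:38872217-38872466, minus strand), L3MBTL2 (chr22:41205062-41205311, plus strand) and SCML2 (chrX:18354689-18354938, minus strand) fell.
BMI1: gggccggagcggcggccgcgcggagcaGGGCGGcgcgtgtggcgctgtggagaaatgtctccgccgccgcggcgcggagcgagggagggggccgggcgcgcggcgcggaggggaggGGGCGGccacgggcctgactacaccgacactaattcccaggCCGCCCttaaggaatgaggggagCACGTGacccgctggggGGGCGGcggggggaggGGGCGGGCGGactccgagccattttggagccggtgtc
PHC3: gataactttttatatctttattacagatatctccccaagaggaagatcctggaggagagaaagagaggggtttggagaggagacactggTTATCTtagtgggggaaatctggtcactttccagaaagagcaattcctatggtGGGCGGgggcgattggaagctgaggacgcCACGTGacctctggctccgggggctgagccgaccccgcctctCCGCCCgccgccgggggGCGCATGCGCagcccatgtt
CBX6: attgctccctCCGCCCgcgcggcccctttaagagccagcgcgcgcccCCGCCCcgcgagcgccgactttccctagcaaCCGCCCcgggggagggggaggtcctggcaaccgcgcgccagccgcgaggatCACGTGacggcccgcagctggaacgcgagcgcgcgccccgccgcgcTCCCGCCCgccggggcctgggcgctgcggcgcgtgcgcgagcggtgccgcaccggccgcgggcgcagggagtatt
L3MBTL2: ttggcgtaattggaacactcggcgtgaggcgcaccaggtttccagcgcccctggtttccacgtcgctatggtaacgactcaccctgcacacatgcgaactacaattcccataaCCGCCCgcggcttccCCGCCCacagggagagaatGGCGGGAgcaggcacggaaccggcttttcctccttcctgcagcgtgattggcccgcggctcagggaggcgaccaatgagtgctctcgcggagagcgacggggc
SCML2: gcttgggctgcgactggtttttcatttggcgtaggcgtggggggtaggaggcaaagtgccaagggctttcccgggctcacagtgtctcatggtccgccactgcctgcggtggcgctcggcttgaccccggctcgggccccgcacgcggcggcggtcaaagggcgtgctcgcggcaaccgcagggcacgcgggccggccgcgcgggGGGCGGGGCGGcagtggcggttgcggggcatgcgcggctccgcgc

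All 5 windows held at least 2 GC boxes, which were found in 22 of the 31 windows, or 71.0%, against 42.6% of all 35116 promoter windows. Each member has a single window here, whereas the 35116 windows include every window of a gene, so the sets compared are unlike. The E-box, the motif of MAX heterodimers such as MGA with MAX, was found once each in BMI1, PHC3 and CBX6 and in 6 of the 31 windows, or 19.4%, against 6.34% of all windows. The E2F-type motif was found in CBX6 and L3MBTL2 among these 5 and in 9 of 31, or 29.03%, against 13.5%. The ETS-type motif was in 3 of 31 windows, or 9.68%, against 8.52%, the NRF1 motif in PHC3 alone, or 3.23%, against 1.03%, and the GATA-type motif in 2, PHC3 and PCGF1, or 6.45%, against 9.17%. The windows of the members were richer in G and C, with a median of 71.6% against 58.0% of all windows and 25 against 11 CpG dinucleotides, and the part of this in the motif shares was not tested. These matches describe the letters of the windows and do not show binding.

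A list of 45 further genes was examined beside the members. It was made up of other partners of these complexes, other histone ligases and deubiquitinases, E2 enzymes, readers and paralogs, and not all of them act on H2AK119. Of its 44 tested genes, 10 passed, or 22.7%, near the 24.7% of all genes tested. Of the 44, 2 were called higher and 8 lower, against 13.3% higher and 11.4% lower over all genes tested. The median log2 fold change of the list was -0.065. Fewer genes of the list, and fewer of all genes tested, passed without JAZF1-SUZ12 replicate 2. Of the 10, those with the smallest p-values were UHRF1, DNAJC2, MAX, L3MBTL3 and HDAC2. UHRF1, a ligase that links H3 and DNA methylation, fell from 121.0 and 120.1 to 95.8 and 93.6 CPM (log2 fold change -0.35; edgeR, adjusted p = 0.000179). DNAJC2, a reader of H2AK119 ubiquitin, fell from 124.8 and 111.9 to 100.4 and 92.1 CPM (log2 fold change -0.30; edgeR, adjusted p = 0.00256). MAX, the partner of MGA in PRC1.6, fell from 58.5 and 59.1 to 48.6 and 48.02 CPM (log2 fold change -0.28; edgeR, adjusted p = 0.0035), and L3MBTL3, an MBT-domain paralog of L3MBTL2, rose from 10.2 and 9.15 to 15.2 and 13.2 CPM (log2 fold change 0.55; edgeR, adjusted p = 0.00775). HDAC2 fell by 0.17 on the log2 scale (edgeR, adjusted p = 0.0151). Of 8 further partners of PRC1.6, MAX, HDAC2 and WDR5 fell, and 11.4% of all genes tested were called lower. MAX was called with each library left out. HDAC2 was not called without JAZF1-SUZ12 replicate 2 or mock replicate 1 (edgeR, adjusted p = 0.0860 and 0.101), and WDR5 was not called with any library left out (adjusted p between 0.0765 and 0.142). Of 6 other H2A deubiquitinases, USP16 alone was called, at -0.19 on the log2 scale (edgeR, adjusted p = 0.0208; 0.127 without JAZF1-SUZ12 replicate 2 and 0.127 without mock replicate 1), and none of 6 genes for ubiquitin, E1 and E2 was called.

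The authors' deposited table gave an adjusted p to all 33 tested members and called none of them, while it called 8.5% of its genes with an adjusted p. The smallest adjusted p of a member in the authors' deposited table was 0.122, for PCGF5, and 4 members had an unadjusted p under 0.05. Among the 6 called members BMI1 had the widest gap between the sources, though AUTS2 and SCMH1, which were not called, had wider ones. Its log2 fold change in the authors' deposited table was 0.11 with a standard error of 0.23 (adjusted p = 0.893), against 0.31 with a standard error of 0.06 from the counts. PHC3 also differed, with 0.09 in the authors' deposited table (adjusted p = 0.894) against 0.26 here. For the 4 genes that fell, the authors' deposited table gave values near those from the counts: -0.23 for CBX2, -0.25 for CBX6, -0.26 for SCML2 and -0.33 for L3MBTL2, with adjusted p-values of 0.189, 0.280, 0.311 and 0.314. COMMD3-BMI1 was called in the authors' deposited table, with a log2 fold change of 3.58 (adjusted p = 3.00e-05). The median standard error over the 33 members was 0.13 in the authors' deposited table and 0.064 from the edgeR fit; the cause of the difference was not tested.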

How the data were processed

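Poly(A)-selected, directional RNA-seq of 4 K562 libraries was analysed, per the labels' protocols. The submitters' processing notes name fastp 0.20.1, kallisto 0.46.2, DESeq2 1.30.1 and the build hg38, with no role or order; the annotation is not given in the sources used here. The authors deposited estimated counts per gene, not normalized, of which 29.2% to 32.8% in a library differ from a whole number by over 0.001. They were rounded before testing, since the design had assumed counts. The authors' deposited table holds, per the file headers, a mean signal of depth-normalized counts, a log2 fold change with its standard error, a test score, and the p-value before and after adjustment.

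Genes were kept with filterByExpr (14750) and scaled with TMM, and groups were compared with edgeR 4.0.16 (R 4.3.3, quasi-likelihood F test, two-sided, group as the only term, Benjamini-Hochberg adjustment, threshold 0.05); the script was tested on simulated data. CPM are counts scaled to 1000000 by the TMM-scaled library size. Standard errors are the fold change over the square root of F, and 95% intervals use the fit's t distribution. Alternatives used DESeq2 1.42.0, limma 3.58.1 (voom), other scalings, filters and thresholds, the replicate block and leaving out each library, in which the lone sample is assumed to vary like the other group. Members and lists were chosen with earlier results of these data known; all members are described by role, called ones in full, with the 5 smallest p-values of the further list. Of the gene IDs, 35410 matched GENCODE 29. Same-numbered libraries did not deviate together (r = -0.00072 over 14750 genes), so the numbers were not taken as pairs. Some genes are not reported here.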

Additional observations from a re-analysis of the deposited data

How the results depend on the processing

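The directions of the 6 called members held in every alternative, but their calls did not. The 6 calls became 2 with DESeq2 and 2 at an adjusted p under 0.01, and ranged from 2 to 8 when 1 library was left out: 2 without JAZF1-SUZ12 replicate 2 or mock replicate 1, and 8 without either other library. CBX8, PCGF5 and PHC1 were called only without JAZF1-SUZ12 replicate 1, except PCGF5, which was also called under the filter of at least 50 counts; PCGF6 and KDM2B were called only without mock replicate 2. The 10 calls of the further list became 4 at 0.01 and ranged from 5 to 14 with a library left out. The 3643 genes called became 2407 with DESeq2 and 2045 at 0.01, or 16.3% and 13.9% of all genes tested. The stricter threshold lowers counts by construction. Why DESeq2 called fewer genes was not tested.

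The median log2 fold change of the members, -0.064, was -0.043 with total counts only, -0.079 with no filter, -0.047 with a mean of at least 50 counts, and from -0.081 to -0.024 with 1 library left out. Total counts shifted all genes by a median of 0.022. Members near 0 changed sign: PHC2 to 0.017 and 0.018, BCOR to 0.015 and 0.017 and ASXL1 to 0.014 and 0.016 with total counts and with the filter of 50 counts, and DCAF7 to 0.0014 with that filter. With 1 library left out, PHC2 ranged from -0.055 to 0.025, BCOR from -0.037 to 0.0035 and YAF2 from -0.028 to 0.20. With the replicate block, 6 members were called, 4061 genes in all and 12 genes of the further list, and no member's call changed. Depth limits AUTS2, ASXL3 and SCML1.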
